A study of Mus musculus with 33 samples.

Results

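Eif4ebp1, Rraga and Smcr8 encode proteins of the mTORC1 pathway, and each was represented by 1 probe among the 33012 gene probes of the array. The members were the probes whose identifier is the RefSeq transcript of one of these genes, which were probe 432900 with NM_007918.2 for Eif4ebp1, probe 341113 with NM_178376.2 for Rraga and probe 586460 with NM_175491.2 for Smcr8. RNA came from RAW264.7, a macrophage-like mouse cell line, and was measured on 33 one-colour arrays, 3 for each of 11 groups. The vehicle group received 0.1% DMSO, another group lipopolysaccharide (LPS, a component of bacterial outer membranes that activates macrophages) at 1 µg/ml, and the other 9 groups the same LPS with 1 compound at 1 of 3 doses. The compounds were albiflorin, paeoniflorin and paeonol and the doses 1, 10 and 100 µg/ml. All cells were sampled at 6 h. Albiflorin and paeoniflorin are isomeric monoterpene glycosides of peony root and paeonol is a phenolic ketone, and no group received a compound without LPS. The text on the series' design calls the replicates biological, all from 1 cell line.

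The protein kinase complex mTORC1 couples growth to nutrients. When amino acids are plentiful, Rag GTPase heterodimers, in which RagA (the product of Rraga) or RagB pairs with RagC or RagD, recruit mTORC1 to the lysosome, where the GTPase Rheb activates it. Smcr8 forms a complex with C9orf72 and Wdr41 that associates with lysosomes, acts in autophagy and influences mTORC1 signalling. At the output end, 4E-BP1 (the product of Eif4ebp1) holds the cap-binding protein eIF4E and represses translation until mTORC1 phosphorylates it. In macrophages mTORC1 acts downstream of Toll-like receptors and shapes the translation of cytokine messages. The arrays measured RNA and not phosphorylation or the location of these proteins.

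Of the 3 members, the RefSeq table of mouse promoters (GRCm38.p6) held an entry for Rraga alone. It is shown because Rraga was higher across the LPS-treated groups and so that the start region of the gene can be seen. The entry spans 250 bases before to 50 after the start of the gene on the plus strand, chr4:86575423-86575722, and is printed in lower case with matches to TCTCGCGA and CCGGAAGT in capitals.
Rraga promoter: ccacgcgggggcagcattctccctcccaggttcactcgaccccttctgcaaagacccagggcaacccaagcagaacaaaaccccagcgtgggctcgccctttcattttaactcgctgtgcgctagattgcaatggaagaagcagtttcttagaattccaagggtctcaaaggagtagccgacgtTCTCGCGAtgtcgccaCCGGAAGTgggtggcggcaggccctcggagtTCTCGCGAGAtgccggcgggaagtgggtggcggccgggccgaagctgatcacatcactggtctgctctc
Its GC content was 60%. TCTCGCGA began 66 and 19 bases before the start on the plus strand. The second of these overlapped a match on the minus strand whose leftmost base, in the printed order, lay at -17. CCGGAAGT, the core of sites bound by ETS family factors, began 50 bases before the start. Searched on both strands, TCTCGCGA was present in 0.995% and CCGGAAGT in 3.89% of the 32851 promoters of that table, and the NF-kappaB consensus, found in 8.46% of them, had no match in these 300 bases. These motifs were chosen after the sequence was seen, and a match is a description of the letters only.

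The 3 probes differed in how well they were measured. A probe was counted as detected on an array when its signal over noise was at least 3 and its spot carried no quality flag above 5000. Rraga was detected on 33 of 33 arrays, with a signal over noise of 46.1 to 105 (median 70.5). Smcr8 was also detected on 33 of 33 arrays, with a signal over noise of 5.56 to 29.5 (median 10.0). Eif4ebp1 was detected on 4 of 33 arrays, which were LPS replicates 1 and 2, albiflorin 100 replicate 3 and paeoniflorin 100 replicate 2. Its signal over noise ran from -2.85 to 4.80 (median 1.16). All 3 members passed the filter of detection on at least 3 arrays, which kept 19438 probes. Eif4ebp1 was thus not well above background on any array of 8 of the 11 groups, vehicle among them, and its levels there are bounds.

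**Figure D1:**
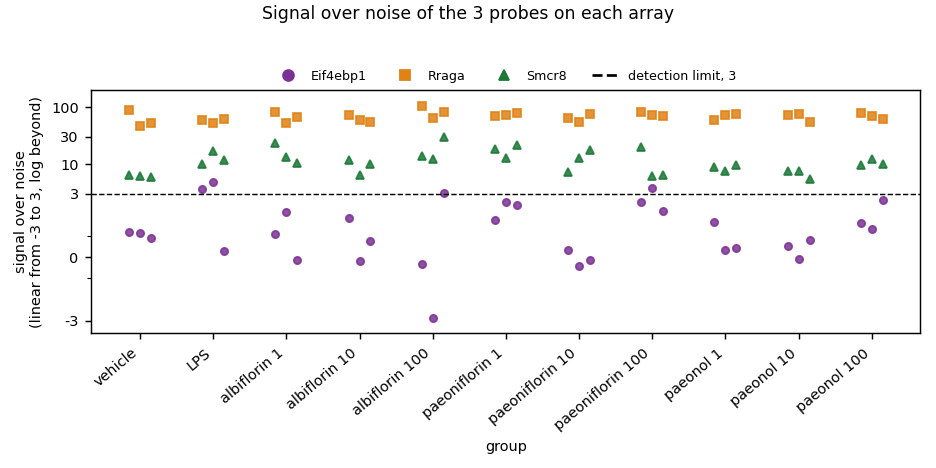
Signal over noise of the 3 probes on each of the 33 arrays, by group, with replicates 1 to 3 from left to right in each group; the vertical axis is linear from -3 to 3 and logarithmic beyond, and the dashed line is the detection limit of 3. Rraga lies at 46.1 or above and Smcr8 at 5.56 or above on every array, while Eif4ebp1 passes the limit on 4 of 33.

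Levels are given as the log2 of the quantile-normalized signal and are comparable between arrays for 1 probe, not between probes. In bulk RNA, fewer cells that express a gene and less RNA per cell cannot be told apart. Before normalization the arrays had median signals between 335.9 and 1440, and the share of detected gene probes lay between 38.2% and 49.7%. The array that stood apart was paeoniflorin 10 replicate 1, with the lowest share detected and the lowest median correlation with the others (0.905, against at least 0.954). Per the file headers each replicate number was scanned on 1 day, 3 days in all. From the values, a control spot and a probe that were bright on whole sets of arrays divided the arrays into sets. Set A had 15 arrays, set B 8 and set C 10. Set B held no vehicle, LPS-alone or albiflorin array. It held replicates 1 and 3 of each paeonol dose, paeoniflorin 10 replicate 1 and paeoniflorin 100 replicate 3. Of 10 macrophage markers 1 carried a name, Cebpb, a transcription factor of myeloid cells, and both of its probes were detected on 33 of 33 arrays. Other defining markers of the line had no named probe and were not checked.

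Smcr8 was the member that differed between LPS and vehicle. Its vehicle arrays read 10.42, 10.90 and 10.46 and its LPS arrays 11.42, 11.21 and 11.63, in the order of replicates 1 to 3. Every LPS array lay above every vehicle array, but how many of all tested probes separated like this was not counted. The difference was 0.82 ± 0.200 (log2, SE, n = 3 per group), which is 1.77-fold, with a limma adjusted p of 0.00486. Within the 3 scan days it was 1.00, 0.31 and 1.17, and the smallest of these was the day of vehicle replicate 2, the highest vehicle array. Within array set A it was 1.00 and within set C 0.74. Set A held replicate 1 of both groups and set C replicates 2 and 3. These values thus regroup the scan days and are no separate check. When the spread was estimated from the LPS and vehicle arrays alone, the size was the same and the adjusted p rose to 0.0656, so the call then ended.

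Rraga did not pass the test for LPS alone. Its vehicle arrays read 16.57, 16.10 and 16.71 and its LPS arrays 16.50, 16.62 and 16.86. The groups overlapped, and vehicle replicate 2 was the lowest of all 33 arrays. The difference was 0.20 ± 0.173 (log2, SE), with an adjusted p of 0.562 and a 95% interval from -0.16 to 0.56. By scan day it was -0.07, 0.52 and 0.15.

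Eif4ebp1, the translational repressor, was detected on 2 of 3 LPS arrays and on 0 of 3 vehicle arrays. Its vehicle arrays read 7.92, 8.18 and 9.10 and its LPS arrays 9.17, 9.72 and 7.95. The 2 detected LPS arrays were the highest of these 6, and the undetected LPS array fell among the vehicle values. The difference was 0.55 ± 0.408 (log2, SE; adjusted p = 0.476), and by scan day it was 1.25, 1.54 and -1.15. The direction was thus not shared by the 3 days. The difference was 0.16 without LPS replicate 2 and 1.04 without LPS replicate 3, so its size rests on single arrays, and no fold is given because vehicle was not above background.

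Read against the whole array, 14.9% of the 19438 tested probes were called between LPS and vehicle, 6.59% being higher, and 1 of the 3 members was called. The median difference over all tested probes was -0.05 and that of the 3 members 0.55. Of all tested probes, 91.3% had a lower difference than Smcr8, 85.5% a lower one than Eif4ebp1 and 69.5% a lower one than Rraga. Smcr8 therefore lay in the upper tail of the LPS response without being among its extremes, and the interval of Eif4ebp1 was the widest of the 3.

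**Figure D2:**
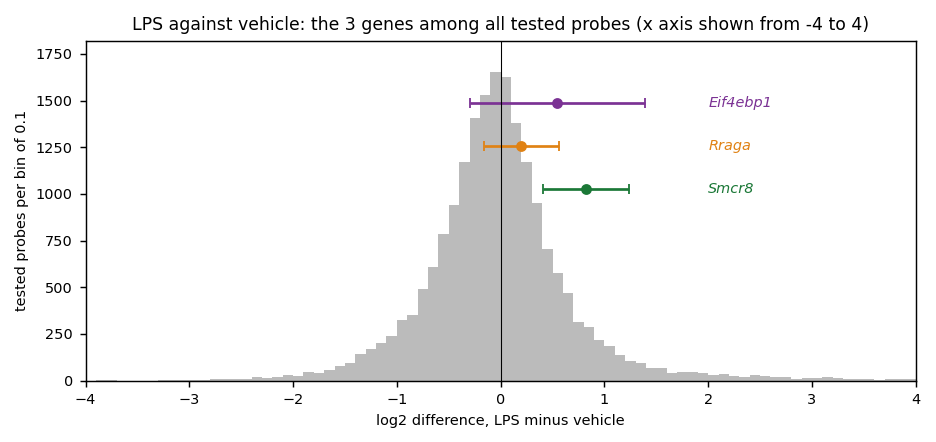
Histogram of the log2 difference between LPS and vehicle over the 19438 tested probes (bins of 0.1, horizontal axis cut at -4 and 4), with the 3 genes as points and their 95% intervals as horizontal bars at arbitrary heights. The interval of Smcr8 (0.41 to 1.24) lies above 0, and those of Rraga (-0.16 to 0.56) and Eif4ebp1 (-0.30 to 1.39) include it.

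The 9 compound groups also received LPS, so all 10 LPS-treated groups can be set against vehicle. This asks about LPS with or without a compound, and not about LPS alone. For Smcr8 the albiflorin arrays read 11.28, 11.07 and 11.01 at 1 µg/ml, 11.47, 11.45 and 11.59 at 10 µg/ml, and 11.23, 10.81 and 11.31 at 100 µg/ml. The paeoniflorin arrays read 10.98, 11.28 and 11.53 at 1 µg/ml, 11.40, 11.37 and 11.34 at 10 µg/ml, and 11.49, 10.79 and 11.33 at 100 µg/ml. The paeonol arrays read 11.48, 11.02 and 11.59 at 1 µg/ml, 11.15, 10.77 and 11.36 at 10 µg/ml, and 11.07, 10.91 and 11.05 at 100 µg/ml. Of these and the LPS arrays, 27 of 30 lay above all 3 vehicle arrays, and the 3 that did not were the replicate 2 arrays of albiflorin 100, paeoniflorin 100 and paeonol 10. Replicate 2 was also the day of the highest vehicle array.

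For Rraga the albiflorin arrays read 16.78, 16.64 and 16.74 at 1 µg/ml, 16.92, 16.66 and 17.07 at 10 µg/ml, and 16.55, 16.80 and 16.99 at 100 µg/ml. The paeoniflorin arrays read 16.63, 16.76 and 17.04 at 1 µg/ml, 17.37, 16.92 and 16.97 at 10 µg/ml, and 16.85, 16.96 and 17.29 at 100 µg/ml. The paeonol arrays read 17.19, 17.02 and 17.19 at 1 µg/ml, 16.90, 16.84 and 16.88 at 10 µg/ml, and 16.84, 16.82 and 17.14 at 100 µg/ml. Of the 30 LPS-treated arrays 24 lay above all vehicle arrays, and the highest was paeoniflorin 10 replicate 1, the array that stood apart. All 9 paeonol arrays were above every vehicle array.

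For Eif4ebp1 the albiflorin arrays read 8.05, 8.85 and 8.29 at 1 µg/ml, 8.27, 8.39 and 8.001 at 10 µg/ml, and 7.74, 7.49 and 8.53 at 100 µg/ml. The paeoniflorin arrays read 9.09, 8.96 and 9.17 at 1 µg/ml, 8.56, 8.44 and 8.14 at 10 µg/ml, and 9.71, 9.42 and 8.49 at 100 µg/ml. The paeonol arrays read 8.59, 7.38 and 7.54 at 1 µg/ml, 7.90, 8.38 and 7.65 at 10 µg/ml, and 8.66, 8.12 and 8.93 at 100 µg/ml. Of the 30 LPS-treated arrays 5 lay above and 6 below all vehicle arrays, so the vehicle values sat inside the spread of the treated ones.

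**Figure D3:**
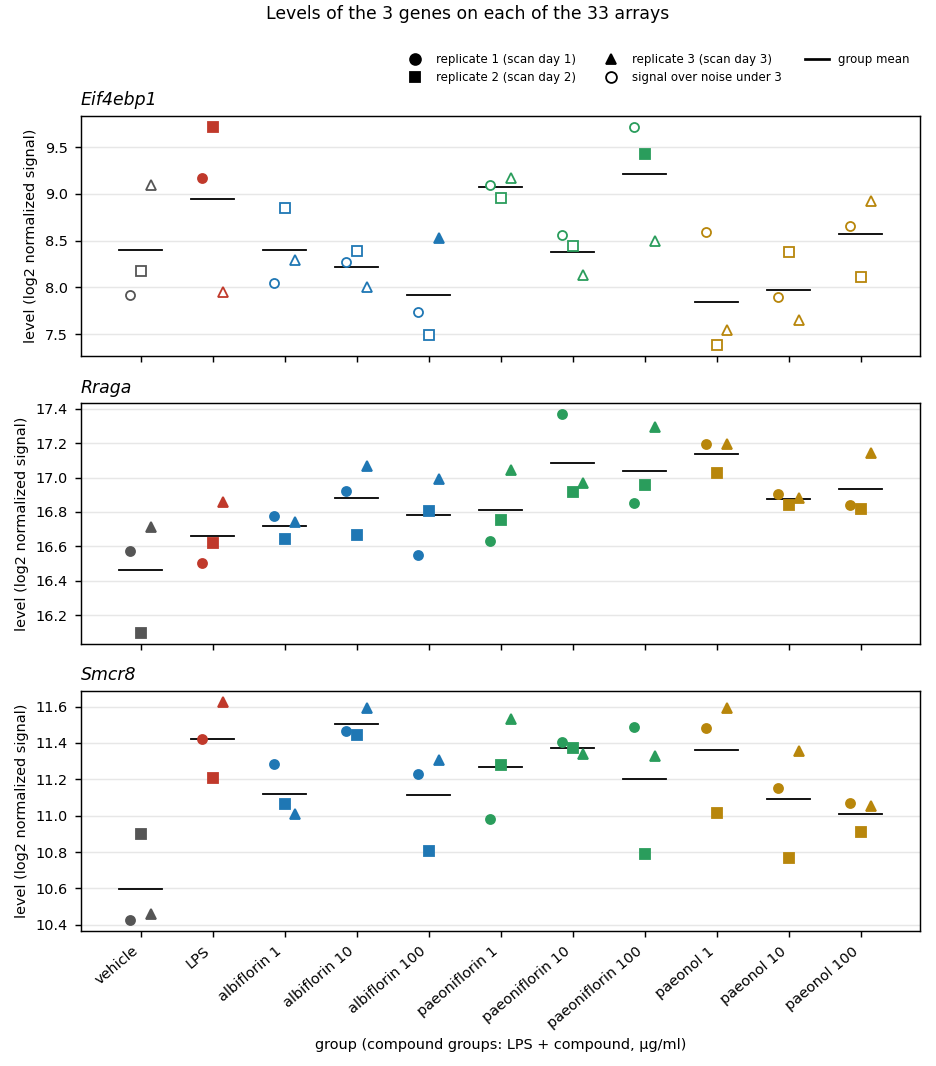
Level of each gene (log2 normalized signal, a separate scale per gene) on each array of the 11 groups; symbols give the replicate number and its scan day, open symbols a signal over noise under 3, and bars the group means. Vehicle has the lowest mean for Smcr8 (10.59) and Rraga (16.46), whereas for Eif4ebp1 it lies in the middle of the order and most symbols are open.

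Over the 10 LPS-treated groups, Smcr8 was 0.65 ± 0.149 (log2, SE) above vehicle, which is 1.57-fold, with a limma adjusted p of 0.00176. Rraga was 0.43 ± 0.129 above vehicle, which is 1.35-fold, with an adjusted p of 0.0153. Eif4ebp1 differed by 0.05 ± 0.303, with an adjusted p of 0.939 and a 95% interval from -0.57 to 0.68. Smcr8 and Rraga were thus higher in this pooled comparison, in which 22.8% of all tested probes were called, 9.06% being higher. For LPS alone Rraga differed by 0.20 and was not called (limma adjusted p = 0.562). The contrast mixes LPS alone with 9 compound treatments and shares its 3 vehicle arrays with every comparison against vehicle.

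The differences of the treated mean from the vehicle array of the same scan day were 0.87, 0.16 and 0.91 for Smcr8 and 0.28, 0.71 and 0.31 for Rraga. In an exact 2-sided permutation test of which of the 11 arrays of a day was the vehicle (1331 arrangements, smallest possible p 0.000751), Smcr8 and Rraga both had p = 0.00301, which is 0.00451 after adjustment over 3 tests, and Eif4ebp1 had p = 0.894. This test treats the arrays of a day as interchangeable, although they fell in different array sets. Its adjustment covers the 3 members and not all tested probes, unlike the limma values above. The Smcr8 vehicle array was the lowest of its day on days 1 and 3 and the fourth lowest on day 2, and the Rraga vehicle array was the third lowest on day 1 and the lowest on days 2 and 3. Vehicle replicate 2 was thus the array that reduced the difference of Smcr8 and enlarged that of Rraga. Without it Rraga differed by 0.25, with an adjusted p of 0.266, so the call for Rraga rests on that array. With median instead of quantile normalization the Rraga difference was again 0.43 and the adjusted p 0.175.

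The array sets gave a like picture for Smcr8 and a less even one for Rraga. Within set A the treated mean exceeded the vehicle array by 0.74 for Smcr8 and by 0.21 for Rraga, and within set C, with 2 vehicle arrays, by 0.65 and 0.46. Set B, which had no vehicle array, had a treated Rraga mean of 17.10, against 16.79 in set A and 16.87 in set C. With the array set as a block, an alternative chosen after seeing the data, the difference was 0.41 for Rraga (adjusted p = 0.0144) and 0.63 for Smcr8 (adjusted p = 0.00194).

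Group by group against vehicle, Smcr8 was higher in 9 of 9 compound groups by 0.42 to 0.91 and passed the test in 5. Its largest difference, 0.91 ± 0.200 (log2, SE), or 1.88-fold, was that of albiflorin at 10 µg/ml (adjusted p = 0.00205), and its smallest, 0.42 ± 0.200, that of paeonol at 100 µg/ml (adjusted p = 0.234). The groups called were albiflorin 10, all 3 doses of paeoniflorin and paeonol 1. Rraga was higher in 9 of 9 compound groups by 0.26 to 0.68 and passed in 3, which were paeoniflorin 10, paeoniflorin 100 and paeonol 1. All of these groups held arrays of set B, as did paeonol 10 and paeonol 100, which did not pass. The largest Rraga difference, 0.68 ± 0.173, or 1.60-fold, was that of paeonol at 1 µg/ml (adjusted p = 0.00784).

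Eif4ebp1 was called in 0 of the 9 compound groups against vehicle, in limma, with 0 at an unadjusted p under 0.05. Its differences ran from -0.56 for paeonol 1 to 0.81 for paeoniflorin 100, each with an SE of 0.408. Vehicle and 7 of these groups had no detected array, so no direction is read from these values.

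Together 8 of 27 values against vehicle were called, 15 having an unadjusted p under 0.05, and each of the 9 comparisons uses the same 3 vehicle arrays. The share of all tested probes called was 17.7%, 15% and 17.5% for albiflorin at 1, 10 and 100 µg/ml, 14.9%, 14.3% and 12.6% for paeoniflorin and 14.6%, 15.1% and 10.4% for paeonol. With the replicate number as a block, which pairs arrays of 1 scan day, 13 of 27 were called. The additions were Smcr8 in albiflorin 1 and 100 and Rraga in albiflorin 10, paeonol 10 and paeonol 100. With median normalization, or with the spread estimated from the compared groups alone, 0 of 27 were called. For LPS against vehicle these settings, in the same order, called 3774, 1881 and 1766 of all tested probes, against 2905 otherwise. Such counts for the 9 comparisons here are not given. The calls thus depended on the normalization and on the spread used, while the differences of Smcr8 and Rraga were positive in 18 of 18 values.

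Single arrays also decided several of these calls. Without vehicle replicate 2, none of the 3 Rraga calls remained, the differences being 0.44 for paeoniflorin 10, 0.39 for paeoniflorin 100 and 0.49 for paeonol 1 (limma adjusted p = 0.122, 0.193 and 0.0765). Without paeoniflorin 10 replicate 1, the array that stood apart, the Rraga difference of that group was 0.48 (adjusted p = 0.0917). The Rraga call of paeoniflorin 100 also ended without its replicate 2 (0.61, adjusted p = 0.0502) or its replicate 3 (0.45, adjusted p = 0.174). The Smcr8 calls of albiflorin 10 and paeoniflorin 10 held whichever array was left out. That of paeonol 1 ended without its replicate 3 (0.65, adjusted p = 0.0594).

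The Smcr8 calls of the other paeoniflorin doses were less firm. At 1 µg/ml the Smcr8 call ended without paeoniflorin replicate 2 (0.66), paeoniflorin replicate 3 (0.54), vehicle replicate 1 (0.59) or vehicle replicate 3 (0.60). At 100 µg/ml the Smcr8 call ended without paeoniflorin replicate 1 (0.46), paeoniflorin replicate 3 (0.54), vehicle replicate 1 (0.52) or vehicle replicate 3 (0.54). In the other direction, Smcr8 passed without vehicle replicate 2 in albiflorin 1 (0.68), albiflorin 100 (0.67) and paeonol 10 (0.65), and without their own replicate 2 in albiflorin 100 (0.67) and paeonol 10 (0.66). Vehicle replicate 2 thus bore on both genes, lowering the difference of Smcr8 and raising that of Rraga in each group.

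**Figure D4:**
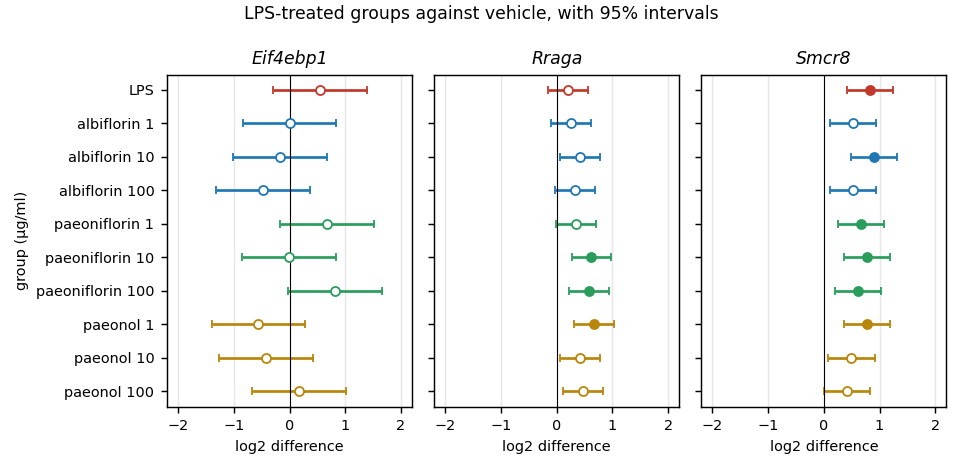
Log2 difference of each LPS-treated group from vehicle for the 3 genes, with 95% intervals from the limma fit; filled points passed an adjusted p of 0.05. All 10 points of Smcr8 and of Rraga lie to the right of 0, 6 and 3 of them filled, and the points of Eif4ebp1 lie on both sides, all open.

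The comparisons of the compound groups with LPS alone ask whether a compound altered the level under LPS. None of the 27 values (3 genes in 9 groups) was called by limma, and 6 had an unadjusted p under 0.05. The smallest adjusted p was 0.629. The share of all tested probes called was 0% in 8 of the 9 comparisons and 0.144% for paeonol 100, so few probes of any gene passed here. All 9 comparisons share the 3 LPS arrays, so the values of 1 gene move together with those arrays.

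Rraga lay above LPS alone in 9 of 9 compound groups, by 0.06 to 0.48, although the sign of the albiflorin groups turned in an alternative each. With median normalization the difference of Rraga was -0.02 for albiflorin 10 and -0.07 for albiflorin 100, and without LPS replicate 1 it was -0.02 for albiflorin 1. Its 95% intervals were inside a 2-fold change in either direction in 9 of 9. The largest differences were 0.48 ± 0.173 (log2, SE) for paeonol 1 (limma adjusted p = 0.745) and 0.42 ± 0.173 for paeoniflorin 10 (adjusted p = 0.629). In both of these groups every array exceeded every LPS array, but neither difference was called. The share of all tested probes separated like this is not given here. Paeoniflorin 100 differed by 0.37 ± 0.173, and these 3 were the Rraga values with an unadjusted p under 0.05. Of 27 compound arrays 26 read higher than the LPS array of their scan day, the exception being an albiflorin array. With the array set as a block the difference of paeonol 1 was 0.39 and that of paeoniflorin 10 was 0.38, neither called. Without paeoniflorin 10 replicate 1, the array that stood apart, the Rraga difference of that group from LPS alone was 0.28.

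Smcr8 lay below LPS alone in 8 of 9 compound groups, and its differences ran from -0.41 to 0.08. The sign was not settled for 3 of these groups. For albiflorin 10 the difference of Smcr8 was -0.08 with median normalization and -0.02 without LPS replicate 2. Without LPS replicate 3 it was 0.06 for paeoniflorin 10 and 0.05 for paeonol 1, and it also turned for paeoniflorin 10 in the authors' values and for paeonol 1 without its replicate 2 (0.12). Its 95% intervals too were inside a 2-fold change in either direction in 9 of 9. The lowest was paeonol 100, at -0.41 ± 0.200 (adjusted p = 0.66), where all 3 arrays lay under all 3 LPS arrays. That separation too is given without its share over all tested probes. Albiflorin 10 was above LPS alone in the fit of all arrays, by 0.08 ± 0.200. Of 27 compound arrays 21 read lower than the LPS array of their day, 8 of 9 for paeonol, 7 of 9 for albiflorin and 6 of 9 for paeoniflorin.

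The largest differences of Eif4ebp1 from LPS alone were -1.11 ± 0.408 (log2, SE) for paeonol 1 (adjusted p = 0.745), -1.02 ± 0.408 for albiflorin 100 and -0.97 ± 0.408 for paeonol 10 (adjusted p = 1.00 for both). No array was detected in these paeonol groups, and 2 of the 3 LPS arrays were. Without LPS replicate 2 the difference of Eif4ebp1 was -0.72 for paeonol 1 and -0.58 for paeonol 10, and without LPS replicate 3 it was -1.60 and -1.47. Paeoniflorin 1 and 100 were the groups above LPS alone, by 0.13 and 0.26. The LPS arrays themselves spanned 7.95 to 9.72, a wider range than any difference between Eif4ebp1 group means (1.37 at most).

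**Figure D5:**
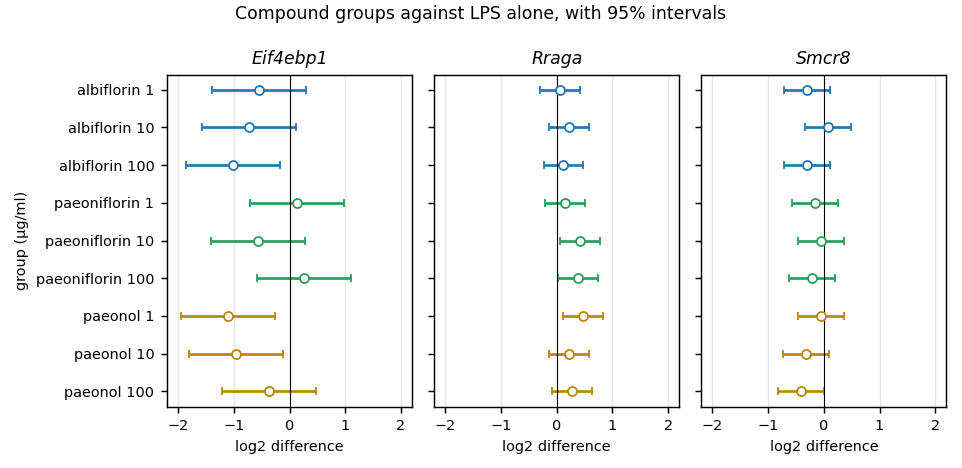
Log2 difference of each compound group from LPS alone for the 3 genes, with 95% intervals from the limma fit; open points did not pass an adjusted p of 0.05, and all 27 are open. The Rraga points lie at 0.06 to 0.48, the Smcr8 points at -0.41 to 0.08 and the Eif4ebp1 points at -1.11 to 0.26.

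Averaged over its 3 doses, no compound was called against LPS alone for any member (0 of 9 values, 4 with an unadjusted p under 0.05). Rraga differed by 0.13 ± 0.142 (log2, SE) for albiflorin, 0.31 ± 0.142 for paeoniflorin and 0.32 ± 0.142 for paeonol. Smcr8 differed by -0.17 ± 0.164, -0.14 ± 0.164 and -0.26 ± 0.164 in the same order. Eif4ebp1 differed by -0.77 ± 0.333 for albiflorin, -0.06 ± 0.333 for paeoniflorin and -0.82 ± 0.333 for paeonol. All 3 means of a gene are set against the same 3 LPS arrays, and that of Rraga for albiflorin was -0.02 with median normalization. The adjusted p-values of the 9 were 0.796 or above. The share of all tested probes called was 0% for albiflorin, 0.00514% for paeoniflorin and 0% for paeonol.

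A moderated F-test over the 10 LPS-treated groups asked whether any of them differed, and it called 0.0257% of all tested probes and 0 of the 3 members. The F was 2.89 for Eif4ebp1, 1.63 for Rraga and 1.33 for Smcr8, with adjusted p-values of 1.00 for all 3, and the unadjusted p was under 0.05 for Eif4ebp1. So it was for 903 of the 19437 probes in this F-test, and Eif4ebp1 was detected on 4 of 33 arrays only.

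No slope on dose passed the test. In log2 per 10-fold dose, Smcr8 had -0.18 ± 0.100 (SE) for paeonol, -0.03 ± 0.100 for paeoniflorin and -0.00 ± 0.100 for albiflorin. Rraga had -0.10 ± 0.0867 for paeonol, 0.11 ± 0.0867 for paeoniflorin and 0.03 ± 0.0867 for albiflorin. Eif4ebp1 had 0.36 ± 0.204 for paeonol, 0.07 ± 0.204 for paeoniflorin and -0.24 ± 0.204 for albiflorin. The largest relative to their error were those of Eif4ebp1 and Smcr8 for paeonol. Of the 9 slopes 0 were called by limma and 0 had an unadjusted p under 0.05. Of all tested probes 0% had a called slope for albiflorin and paeoniflorin and 0.0206% for paeonol.

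At matched doses, 3 pairs of compounds at 3 doses gave 9 comparisons for each gene, and 0 of the 27 values were called, 3 having an unadjusted p under 0.05. For the isomers, Eif4ebp1 differed by -1.29 ± 0.408 (log2, SE) between albiflorin 100 and paeoniflorin 100 (95% interval -2.13 to -0.45, adjusted p = 1.00), with 1 of 3 arrays detected in each. The Eif4ebp1 readings of paeonol 1 and paeoniflorin 1 were -1.24 ± 0.408 apart (-2.08 to -0.39, limma adjusted p = 0.96). No array was detected in either of these groups, so no direction of Eif4ebp1 is read from them. Rraga was 0.42 ± 0.173 higher with paeonol 1 than with albiflorin 1 (0.06 to 0.77, limma adjusted p = 0.388). These groups did not overlap, but how many of all tested probes separated like this was not counted. Paeonol 1 replicates 1 and 3 were in array set B, which held no albiflorin array, so compound and array set were partly mixed here. Within set A, paeonol 1 replicate 2 read 17.02 and albiflorin 1 replicate 1 read 16.78 for Rraga. The share of all tested probes called was 0.0103% for paeonol 1 against albiflorin 1, 0.0309% for paeonol 100 against albiflorin 100, 0.0154% for paeonol 100 against paeoniflorin 100 and 0% in the other 6.

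Between albiflorin and paeoniflorin, which share a formula and differ in the arrangement of their atoms, Smcr8 differed by -0.15 ± 0.200 (log2, SE) at 1 µg/ml, 0.13 ± 0.200 at 10 µg/ml and -0.09 ± 0.200 at 100 µg/ml. The widest 95% interval bounds were -0.56 and 0.54. Rraga differed between the isomers by -0.09 ± 0.173, -0.20 ± 0.173 and -0.25 ± 0.173 at these doses, within bounds of -0.61 and 0.27. Paeoniflorin 10 replicate 1 and paeoniflorin 100 replicate 3 were in array set B, which held no albiflorin array. Compound and array set were thus partly mixed for Rraga here. Without the set B array of the dose, the difference was -0.06 at 10 µg/ml and -0.12 at 100 µg/ml. The intervals exclude a 2-fold difference for both genes and leave room for smaller ones.

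Ordered by group mean, Smcr8 ran from vehicle (10.59 ± 0.266, SD, n = 3) to albiflorin 10 (11.50 ± 0.0785), with paeonol 100 (11.01 ± 0.0883) next above vehicle and LPS alone (11.42 ± 0.209) second highest. Of the 10 pairs of neighbours in that order, 9 had overlapping arrays, and the exception was vehicle and paeonol 100, 0.42 apart. Rraga ran from vehicle (16.46 ± 0.322) and LPS alone (16.66 ± 0.182) to paeoniflorin 10 (17.08 ± 0.246) and paeonol 1 (17.14 ± 0.0972), and Eif4ebp1 from paeonol 1 (7.84 ± 0.658) to paeoniflorin 100 (9.21 ± 0.638). For both, 10 of 10 pairs of neighbours overlapped. LPS alone thus held the next to lowest place for Rraga and the next to highest for Smcr8.

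Across the 11 group means, Rraga and Smcr8 had a Pearson correlation of 0.58, which was 0.14 over the 10 LPS-treated groups, and the deviations of single arrays from their group means had 0.15. Most of the likeness thus lay in the vehicle group. Eif4ebp1 had -0.13 with Rraga and 0.07 with Smcr8. All these values come from the same 33 arrays and are descriptions.

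The named genes whose 11 group means were most like those of a member were ranked by Pearson correlation. For Smcr8, among 86 named genes detected on all arrays, these were 2700081O15Rik (0.86), Csprs (0.82) and Sowahc (0.82). Over the 10 LPS-treated groups alone the correlations were 0.60, 0.39 and 0.44. Their means with LPS and with vehicle entered the ranking, so their own differences, 0.90, 4.31 and 1.08 on the log2 scale, are a description. For Rraga they were Gnl2, which encodes a nucleolar GTPase of ribosome assembly (0.83), Trmt61a, which encodes a tRNA methyltransferase subunit (0.70), and Notum, which encodes an extracellular deacylase of Wnt proteins (0.68). Over the LPS-treated groups alone these were 0.87, 0.78 and 0.80, and the differences between LPS and vehicle were 0.02, 0.06 and -0.19. For Eif4ebp1, among 182 candidates, they were Tcp10a (0.71), Zfp146 (0.66) and Olfr697 (0.64), of which Tcp10a was detected on 4 and Olfr697 on 5 of 33 arrays. Each is the top of a ranking over many candidates and carries no test.

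Of 68 other genes of the mTORC1 pathway, 1 carried a name here. This was Flcn, which encodes folliculin, a GTPase-activating protein for RagC and RagD at the lysosome that is related in structure to Smcr8. Its vehicle arrays read 15.87, 16.10 and 16.40 and its LPS arrays 14.87, 15.32 and 15.54. These groups did not overlap, but how many of all tested probes separated like this was not counted. The difference was -0.88 ± 0.393 (log2, SE; limma adjusted p = 0.154), and with the replicate block the adjusted p was 0.0404. It was called in 2 of 16 alternatives, whose limma adjusted p-values ran from 0.00647 to 0.378. Over the 10 LPS-treated groups Flcn fell by 1.22 ± 0.291 on the log2 scale (limma adjusted p = 0.00271). This stayed called under 41 of 41 alternatives (-1.35 to -0.96), most of which left out 1 array. Within array set A the treated mean was 1.31 below the vehicle array, and within set C it was 0.74 below. Flcn thus moved opposite to Smcr8 and Rraga across the LPS-treated groups, and the other 67 listed genes were not analysed here.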

How the data were processed

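The deposited scanner tables give, for each spot, an intensity on a linear scale, a score of signal over noise, and a flag for quality, per the file headers; from the values, they are not normalized between arrays. A deposited table of the authors' log2 values, whose normalization is not given in the sources used here, served as an alternative. The labels' protocols describe digoxigenin-labelled cRNA and chemiluminescence. Spots flagged above 5000 were set missing (none of the 3 genes), signals were quantile normalized, floored at their 5th percentile (165.7) and taken to log2. Probes with a signal over noise of at least 3 on 3 or more of 33 arrays were tested (19438 of 33012; 303 control spots were left out). One limma 3.58.1 fit (R 4.3.3) of 11 group means, without a block, gave 2-sided tests with Benjamini-Hochberg adjustment over all tested probes per comparison and a threshold of 0.05. The code was tested on simulated data. The number of arrays limits the precision, with a median standard error of 0.337 for LPS against vehicle.

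Where no array of a group detected a probe, its level there is a bound and no fold is given. A log2 difference that involves such a group compares readings near background. Statements that groups did not overlap describe the arrays named, and the share of all tested probes separated like this is not given. Names came from a RefSeq table (GRCm38.p6), which named 311 of 517 RefSeq accessions and 316 probes in all, 183 of them tested. Besides the 3 genes, the text names those of 68 listed pathway genes that carry a name and, per gene, the 3 named genes with the most similar group means. Genes, lists and tests were chosen with earlier results of these data known. Per the file headers 3 of 3 replicate numbers mark a shared scan day, so they pair the arrays; deviations from the group means had a median correlation of 0.193 within a number and -0.111 between numbers. Alternatives covered normalization, floor, filters, flags, blocks, the arrays in the fit and each array left out.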

Additional observations from a re-analysis of the deposited data

How the results depend on the processing

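The call of Smcr8 for LPS against vehicle held under 15 of 16 alternatives (0.72 to 0.98, adjusted p 0.00161 to 0.0656), 7 of them leaving out 1 array, and ended when only the compared groups were fitted (0.82, adjusted p = 0.0656, 0 members called). Over all LPS-treated groups Smcr8 stayed called under 41 of 41 (0.57 to 0.80). Of these alternatives 33 left out 1 array, mostly an LPS-treated one, which shifts a mean over 10 groups little. Most of them thus put little strain on the calls of Smcr8 and Rraga. Among the arrays left out, the vehicle arrays moved both differences most. Rraga stayed called under 39 of 41; it was 0.43 with an adjusted p of 0.175 under median normalization (1 member called), and between 0.25 and 0.56 with 1 array left out, the lowest being without vehicle replicate 2 (adjusted p = 0.266; 1 to 2 members called). Eif4ebp1 was called in none of its alternatives against vehicle and ranged from -0.18 to 0.40 over all LPS-treated groups when 1 array was left out, turning sign without vehicle replicate 1 (-0.18) and without vehicle replicate 2 (-0.06). Against vehicle, 8 of 27 values were called, 13 with the replicate block, 0 with median normalization, 0 with only the compared groups, and 6 to 9 with 1 array left out. The replicate block changed no other call of the members. Against LPS alone, 9 of 27 differences turned sign in some alternative, none of them called. All probes called numbered 2905 for LPS against vehicle, 3774 with the replicate block, 1881 with median normalization and 1766 with only the compared groups. For all LPS-treated groups 39.7% of the called probes were higher, and 50.9% in the authors' values. No member was called against LPS alone, by slope, at matched doses or by F under any alternative.

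Eif4ebp1 had no value under the filter of detection on all 3 arrays of a group. The headers give no array batch besides the scan day, so the planned block on a header batch is the replicate block; the array set, read from the values, was fitted as a block of its own. The causes were not tested.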
